A study of Mus musculus with 12 samples.

Results

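Interferon response genes were examined in bulk gene expression profiles of sorted brain cells from old p16-3MR mice. The genes are the receptor subunits Ifnar2 and Ifngr1, the transcription factor Irf7, and the effectors Ifitm3, Isg15, Ifit3, Bst2, Oasl2 and Ly6e. They were taken by name, as known receptors and targets of interferon, and are 9 of the 18571 genes with at least 1 count. All 9 had at least 20 counts over the 10 libraries and were thus among the 10254 genes tested.

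The brains came from 5 male mice on a C57BL/6 background, and mice 1 to 5 were 113, 115, 116, 116 and 116 weeks of age. In p16-3MR mice a transgene under the p16 promoter encodes a red fluorescent protein (RFP) together with a luciferase and a viral thymidine kinase, so that fluorescence reads out a transgene promoter and not the p16 protein itself. Viable nucleated cells, negative for DAPI and positive for Draq5, gave 1 RFPneg library of low fluorescence and 1 RFPpos library of high fluorescence from each mouse. Both populations therefore share genotype, age and sex, no treatment is listed for either, and the comparison asks how cells with high reporter signal differ from the other viable brain cells of the same animal. The libraries were made from 3′ ends of transcripts. Counts on genes were 177287, 196103, 415834, 248471 and 299680 in the RFPneg libraries of mice 1 to 5, and 222560, 289713, 223052, 250482 and 242798 in RFPpos. A count of 0 allows up to 3 counts, which is 7.21 CPM in the deepest library (RFPneg of mouse 3) and 16.9 CPM in the shallowest (RFPneg of mouse 1). CPM is the usual level of a gene, its counts scaled to a common library total, and the levels below also use edgeR's TMM factors. Cdkn2a, the gene that encodes p16, had 8 counts over the RFPneg libraries and 0 in each RFPpos library. Its own transcript could therefore not serve as a check of the sort in these libraries at this depth. The paper itself reports that p16 transcript was enriched in its purified cells of high fluorescence.

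Interferons are secreted signals of antiviral defence. Type I interferons bind a receptor built from Ifnar1 and Ifnar2, and interferon gamma binds one built from Ifngr1 and Ifngr2. Both receptors act through Janus kinases and STAT proteins, which enter the nucleus, bind short elements in promoters and switch on effector genes whose products block viral entry, translation and release. Microglia, the resident macrophages of the brain, carry both receptors and are known to raise such genes in infection, injury and aging, and endothelial cells of brain vessels respond to interferon as well.

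The sort used no cell type marker, and the populations differed in cell type content by 14 lists of marker genes, none of which share a gene. The 20 microglia markers took 2.34%, 1.56%, 1.67%, 1.53% and 2.17% of the counts in the RFPneg libraries of mice 1 to 5. In the RFPpos libraries they took 4.49%, 3.91%, 4.10%, 3.96% and 3.44%. Microglial transcripts were therefore present in both populations, and their share was higher in RFPpos in 5 of 5 mice, with all 20 markers called higher by the edgeR test described below. The most abundant marker was Ctss, with 5456 counts in RFPneg and 11972 in RFPpos, and none of the 20 markers was at 0 in either population. The 15 endothelial markers took 0.214%, 0.689%, 0.726%, 0.960% and 0.562% of the RFPneg counts of mice 1 to 5, and 0.0135%, 0.0207%, 0.0273%, 0.0411% and 0.0272% of the RFPpos counts. All 15 were called lower. Vessel transcripts were thus sparse in RFPpos, where Emcn and Slc22a8 were at 0 and the most abundant endothelial marker, Flt1, had 42 counts against 1795 in RFPneg. In a bulk sample, fewer cells of a type and less RNA per cell cannot be told apart.

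**Figure D1:**
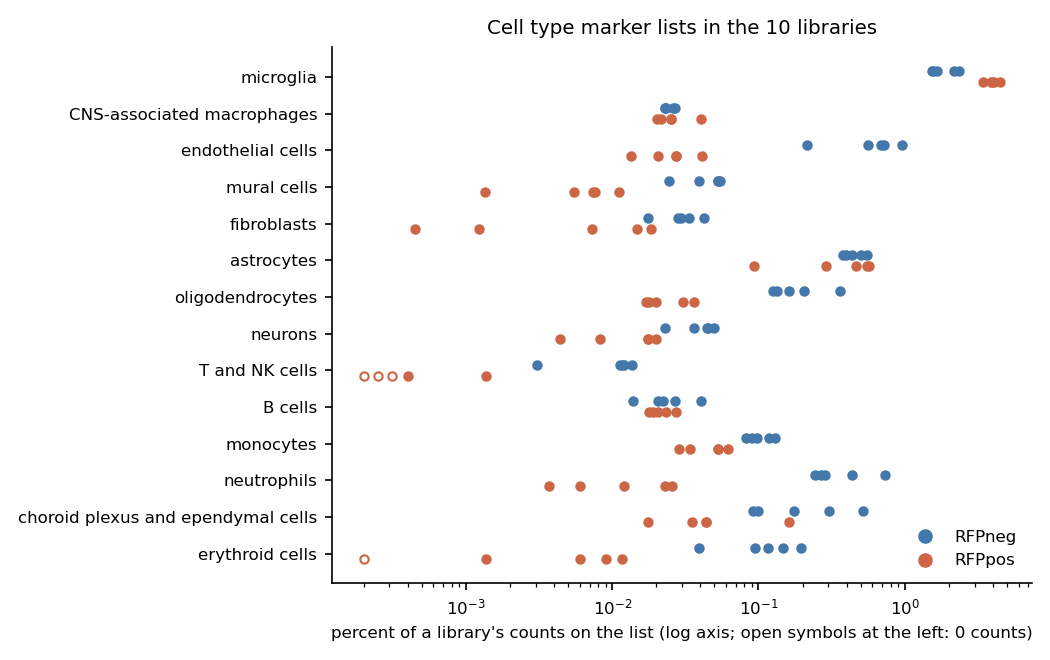
Percent of each library's counts on the genes of 14 cell type marker lists (log axis), with 5 RFPneg and 5 RFPpos libraries a list and open symbols for libraries with 0 counts. Microglia markers took 1.53% to 2.34% of the RFPneg counts and 3.44% to 4.49% of the RFPpos counts, while endothelial markers took 0.214% to 0.960% and 0.0135% to 0.0411%.

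Markers of neutrophils, monocytes, T and NK cells, erythroid cells, mural cells and fibroblasts were also lower in RFPpos in 5 of 5 mice. The 8 neutrophil markers, led by S100a8, took 0.392% ± 0.203 (SD, n = 5) of the RFPneg counts and 0.0140% ± 0.00980 (SD, n = 5) of the RFPpos counts. Monocyte markers, led by Lyz2, took 0.103% ± 0.0195 and 0.0460% ± 0.0138. Markers of T and NK cells, led by Trbc2, took 0.0104% ± 0.00419 and 0.000356% ± 0.000598, and 7 of the 8 were at 0 in RFPpos. Erythroid markers, led by Hbb-bs in spite of the gate on nucleated cells, took 0.119% ± 0.0583 and 0.00562% ± 0.00496. Mural cell markers, led by Vtn, took 0.0448% ± 0.0129 and 0.00662% ± 0.00359, with 6 of 10 at 0 in RFPpos, and fibroblast markers, led by Igf2, took 0.0303% ± 0.00905 and 0.00842% ± 0.00800. Of the cells native to brain tissue, oligodendrocytes (led by Mbp, 0.197% ± 0.0961 and 0.0243% ± 0.00866) and neurons (led by Meg3, 0.0398% ± 0.0105 and 0.0135% ± 0.00674) were lower in RFPpos in 5 of 5 mice. The same held for choroid plexus and ependymal markers, led by Ttr, at 0.238% ± 0.178 and 0.0605% ± 0.0580. Astrocyte markers, led by Slc1a2, took 0.453% ± 0.0730 and 0.392% ± 0.200 and were higher in RFPpos in 3 of 5 mice. CNS-associated macrophages (led by Mrc1, 0.0245% ± 0.00191 and 0.0265% ± 0.00804) and B cells (led by Ighm, 0.0247% ± 0.0100 and 0.0216% ± 0.00372) were higher in RFPpos in 2 and 3 of 5 mice by percent of counts, but in 4 and 2 of 5 mice with TMM scaling. Most B cell counts were on Ighm (291 in RFPneg and 254 in RFPpos), and Cd79a was at 0 in RFPpos. The part of these cell types in the differences of the interferon genes was not tested.

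Of the 9 interferon response genes, 2 were called between the populations, in opposite directions with TMM scaling. One, the antiviral membrane protein gene Ifitm3, fell about 3.76-fold in RFPpos, and 1, the receptor gene Ifngr1, rose 1.48-fold at an adjusted p just under the threshold of 0.05, though it was lower when libraries were scaled to the microglia markers. Over all genes tested, 511 were called higher (4.98%) and 874 lower (8.52%), so that 1 call in each direction among 9 genes is near the background. Of the 9 log2 fold changes, 4 were above 0, and their median was −0.18 against −0.11 over all genes tested. The summed level of the 6 effectors was 1396 ± 340 CPM in RFPneg and 1106 ± 199 CPM in RFPpos (SD, n = 5 each) and was lower in RFPpos in 5 of 5 mice. Without Ifitm3, left out after its value was seen, it was 1150 ± 290 and 1038 ± 158 CPM, and RFPpos was higher in 2 of 5 mice. The other 7 genes were not called by edgeR's quasi-likelihood test with Benjamini-Hochberg adjustment over all 10254 genes.

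**Figure D2:**
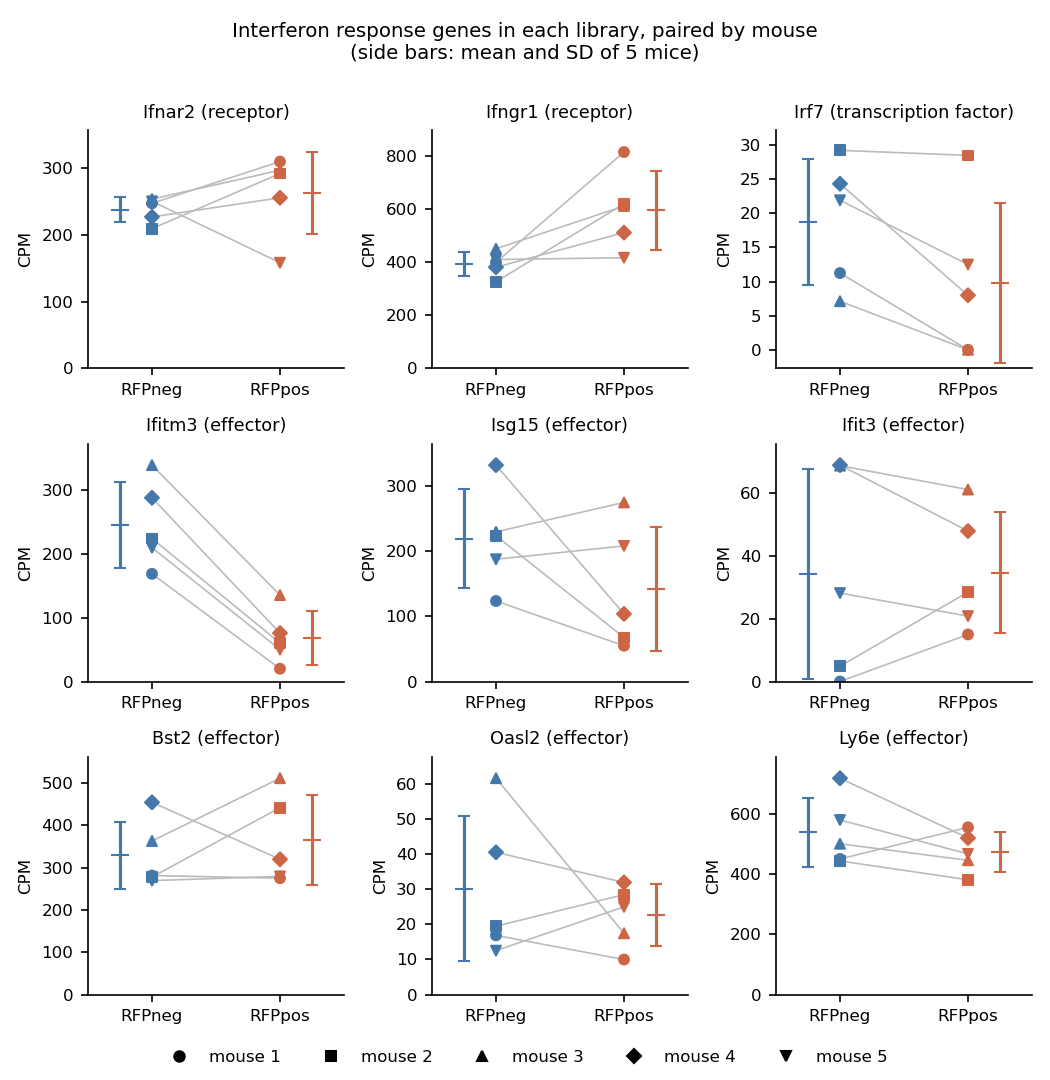
Levels in CPM (TMM scaling) of the 9 interferon response genes in the RFPneg and RFPpos library of each of 5 mice, with lines joining libraries of a mouse and side bars for the mean ± SD of 5 mice. The Ifitm3 values of the populations do not overlap (169 to 339 CPM in RFPneg, 20 to 135 CPM in RFPpos), while for the other 8 genes the ranges overlap.

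Among the receptors, Ifngr1 encodes the ligand-binding subunit of the interferon gamma receptor (ENSMUSG00000020009; GRCm38 chr10:19591949-19610229, plus strand). Its level was 399, 326, 450, 381 and 410 CPM in the RFPneg libraries of mice 1 to 5, and 814, 619, 611, 511 and 417 CPM in their RFPpos libraries. It was higher in RFPpos in 5 of 5 mice, by a wide margin in mouse 1 and hardly at all in mouse 5, and the ranges of the populations overlapped only through the RFPpos library of mouse 5. The log2 fold change was 0.56 (standard error 0.20, 95% interval 0.16 to 0.97, edgeR adjusted p = 0.0497). The call was lost without any one of mice 1 to 4 (edgeR adjusted p of 0.178, 0.227, 0.110 and 0.0562) and in 6 further alternatives of scaling, filter or test, with adjusted p from 0.0607 (edgeR likelihood ratio test) to 0.13 (DESeq2). With libraries scaled to the 20 microglia markers its log2 fold change was −0.63, so that Ifngr1 rose less than these markers did.

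Ifnar2, a signalling subunit of the type I receptor (ENSMUSG00000022971; GRCm38 chr16:91372783-91405589, plus strand), was measured at 247, 209, 254, 227 and 250 CPM in RFPneg and at 310, 292, 297, 256 and 158 CPM in RFPpos, mice 1 to 5 in order. The RFPpos value was above the RFPneg value in mice 1 to 4 and below it in mouse 5. The log2 fold change was 0.11 with a 95% interval from −0.33 to 0.55 (standard error 0.22, edgeR adjusted p = 0.837), and it was −1.08 when scaled to the microglia markers. An overlapping gene on the same strand, Gm21970, had 0 counts.

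Irf7, a transcription factor that amplifies the type I response (ENSMUSG00000025498; GRCm38 chr7:141262706-141266481, minus strand), was barely detected. It had 2, 6, 3, 6 and 7 counts in the RFPneg libraries of mice 1 to 5 and 0, 8, 0, 2 and 3 counts in RFPpos. With TMM scaling the level was lower in RFPpos in 5 of 5 mice, by less than 1 CPM in mouse 2. Most of these values were near the limit of 3 counts that a count of 0 allows, and no difference was detectable at this depth (log2 fold change −1.18, standard error 0.84, 95% interval −2.85 to 0.50, edgeR adjusted p = 0.446). The gene overlaps Phrf1 on the other strand, which had 141 counts, and since the use of strand in counting is not given in the sources used here, its counts are uncertain.

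The effectors carry out the response, and STAT complexes bind short elements in the promoters of many such genes. Promoter sequences of 250 bases before to 50 bases after the start site, from RefSeq (GRCm38.p6), were matched for 8 of the 9 genes, the exception being Ly6e. The core of the interferon-stimulated response element (ISRE), GAAANNGAA on either strand, was found in 4 of them, Ifitm3, Isg15, Ifit3 and Bst2, against 8.56% of all 32851 promoters in the table. It was not present in this window of Oasl2, Irf7, Ifngr1 and Ifnar2. The gamma-activated site TTCNNNGAA, which reads the same on both strands, was present in Ifitm3, Bst2 and Ifnar2, and in 8.30% of all promoters. The stretches with the ISRE core are shown because these 4 genes share the letters of the element while only Ifitm3 among them passed the test. Each is written 5′ to 3′ on the strand of its gene, with matched letters in capitals. Those of Isg15 lie 58 to 78 bases, those of Ifit3 94 to 155 bases and those of Bst2 116 to 130 bases before the start site. The 2 matches of Ifitm3 lie 2 to 27 bases after it, with a gamma-activated site (TTCTGAGAA) between them that overlaps the second ISRE match. The Ifit3 matches are on the other strand. In Isg15 and Bst2 neighbouring matches overlap, and the gamma-activated site of Bst2 (TTCCAGGAA) overlaps its first ISRE match. A match describes the letters only and shows no binding in these cells.
Ifitm3 (chr7:141010717-141010742, minus strand): GAAAAGGAAacttctgaGAAACCGAA
Isg15 (chr4:156200857-156200915, minus strand): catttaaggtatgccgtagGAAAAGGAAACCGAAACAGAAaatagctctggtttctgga
Ifit3 (chr19:34583374-34583435, plus strand): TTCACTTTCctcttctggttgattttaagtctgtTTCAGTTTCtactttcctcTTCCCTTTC
Bst2 (chr8:71537566-71537624, minus strand): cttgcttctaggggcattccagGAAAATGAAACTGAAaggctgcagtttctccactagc

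Ifitm3 encodes a membrane protein that keeps enveloped viruses from fusing with the cell (ENSMUSG00000025492; GRCm38 chr7:141009586-141010770, minus strand). It was measured at 169, 224, 339, 288 and 210 CPM in the RFPneg libraries of mice 1 to 5, from 30, 46, 143, 71 and 67 counts. In the RFPpos libraries it was at 20, 60.5, 135, 75.9 and 50 CPM, from 4, 17, 31, 19 and 12 counts. The populations did not overlap, RFPneg was higher in 5 of 5 mice, and mouse 3 was the highest and mouse 1 the lowest in both populations. Ifitm3 fell by 1.91 on the log2 scale in RFPpos (standard error 0.27, 95% interval −2.44 to −1.38, edgeR adjusted p = 5.94e-08), the 150th smallest p-value of all genes tested. The log2 fold change lay between −2.13 and −1.75 over 13 alternatives and was −3.13 when scaled to the microglia markers, so that the direction and the call were kept in each. In the same mice the endothelial markers were lower in RFPpos as well, with 0.630% ± 0.274 and 0.0260% ± 0.0102 of the counts (SD, n = 5 each). So were those of neutrophils, monocytes and several other cell types given above. The part of any of these cell types in the fall of Ifitm3 was not tested.

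The Ifitm genes are close relatives, and reads can be split among them, so their counts are uncertain as single genes. Ifitm2 had 48 counts in RFPneg and 10 in RFPpos and was called lower (log2 fold change −2.16, standard error 0.69, edgeR adjusted p = 0.0236), a call that was lost without mouse 1, 2 or 3 (0.0801, 0.107 and 0.0621) and with DESeq2 (0.0607). Ifitm1 had 13 counts in RFPneg and 0 in each RFPpos library, too few to be tested. Both lay on the same side as Ifitm3.

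Isg15, a ubiquitin-like protein that is joined to other proteins during the response (ENSMUSG00000035692; GRCm38 chr4:156199424-156200818, minus strand), was measured at 124, 224, 230, 332 and 188 CPM in RFPneg, mice 1 to 5 in order. In RFPpos it was at 55.0, 67.6, 275, 104 and 208 CPM. The RFPpos values fell into a lower set of mice 1, 2 and 4 and a higher pair of mice 3 and 5, and only in that pair was RFPpos above RFPneg. The log2 fold change of −0.73 (standard error 0.27, 95% interval −1.26 to −0.20) did not pass the test (edgeR adjusted p = 0.0548). It passed without mouse 3 (−1.07, edgeR adjusted p = 0.0179) or without mouse 5 (−0.98, edgeR adjusted p = 0.0221). It also passed with 2 other scalings of the libraries and with scaling to the microglia markers. Over the 13 alternatives without microglia scaling the log2 fold change stayed below 0, from −1.07 to −0.46. The sign was thus kept, while neither a call nor its absence is firm for this gene.

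The other 4 effectors were not called. Bst2, a protein that tethers budding virus particles to the cell, was at 269 to 454 CPM in RFPneg and at 275 to 511 CPM in RFPpos, and was higher in RFPpos in 3 of 5 mice. Its log2 fold change was 0.14 (95% interval −0.28 to 0.56, edgeR adjusted p = 0.778). Ly6e, a lipid-anchored surface protein of the Ly6 family that limits entry of some viruses, was at 443 to 717 CPM in RFPneg and at 381 to 555 CPM in RFPpos. Its log2 fold change was −0.18 (95% interval −0.57 to 0.21, edgeR adjusted p = 0.673), and the RFPpos value was below the RFPneg value in mice 2 to 5. With TMM scaling both intervals end well short of that of Ifitm3, while scaling to the microglia markers gave −1.05 for Bst2 and −1.37 for Ly6e.

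Ifit3 and Oasl2 had few counts. Ifit3, which binds viral RNA together with its Ifit relatives, had 0, 1, 29, 17 and 9 counts in the RFPneg libraries of mice 1 to 5 and 3, 8, 14, 12 and 5 in RFPpos. Levels in RFPneg ranged from 0 in mouse 1 to 68.9 CPM in mouse 4, and the log2 fold change was 0.20 (95% interval −0.82 to 1.22, edgeR adjusted p = 0.884), or −0.98 when scaled to the microglia markers and −0.11 without mouse 2. Ifit3b, a near copy of Ifit3, had 41 counts in RFPneg and 29 in RFPpos, and reads of the pair may have been split, so both are uncertain. Oasl2, a member of the oligoadenylate synthetase-like family, had 3, 4, 26, 10 and 4 counts in RFPneg and 2, 8, 4, 8 and 6 in RFPpos. Its log2 fold change was −0.31 (95% interval −1.43 to 0.82, edgeR adjusted p = 0.828) and turned to 0.14 without mouse 3, and RFPpos was higher in 2 of 5 mice. For both genes the interval spans more than a doubling, so that a difference could not be seen or dismissed at this depth.

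**Figure D3:**
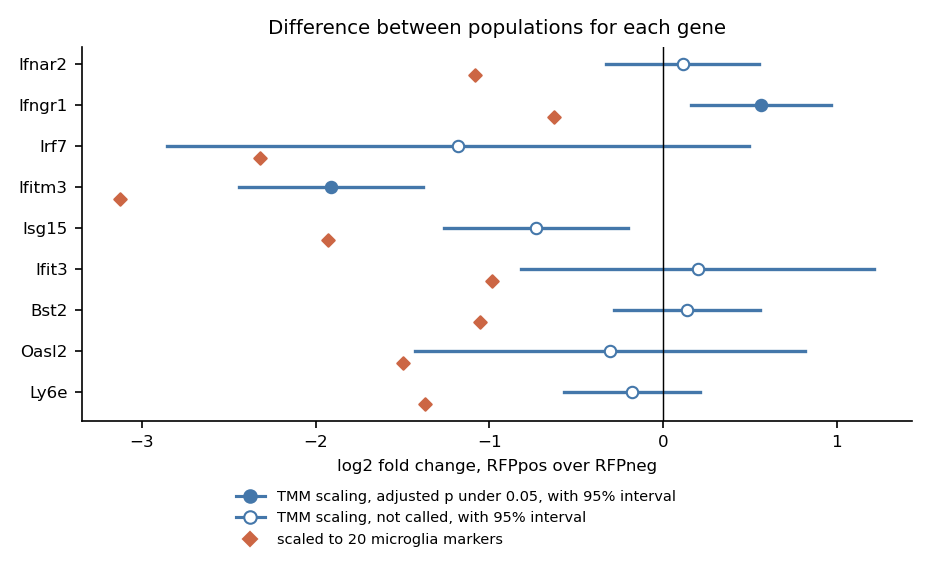
Log2 fold change of RFPpos over RFPneg for each of the 9 genes with its 95% interval (circles, TMM scaling, filled at an adjusted p under 0.05), and the value with libraries scaled to 20 microglia markers (diamonds). Ifitm3 lies at −1.91 and −3.13, while Ifngr1 lies at 0.56 and −0.63, Bst2 at 0.14 and −1.05, Ifnar2 at 0.11 and −1.08 and Ifit3 at 0.20 and −0.98, on opposite sides of 0.

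RFPpos held a larger share of microglial transcripts, and the direction of 4 of the 9 genes (Ifngr1, Ifnar2, Bst2 and Ifit3) depended on the scaling. With libraries scaled to the 20 microglia markers, the log2 fold changes of all genes moved by −1.17 at the median, leaving 12 called higher against 5625 called lower. On that scale all 9 genes were below 0, with values from −3.13 for Ifitm3 to −0.63 for Ifngr1, and 8 of the 9 were called lower by edgeR (Ifit3, at −0.98 with an adjusted p of 0.104, was not). Since this scaling moves all genes down alike, these values place the 9 genes relative to the markers and are no result about interferon genes as such.

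Other genes of the pathway were examined in a list of 127 genes, none of which is on a marker list. Of these, 92 were tested, 8 were higher (8.70%) and 9 lower (9.78%) in RFPpos, against 4.98% and 8.52% of all genes. The median log2 fold change of the 92 was −0.03. With TMM scaling 5 of the 8 higher calls were sensors or their signalling partners, transcription factors or negative regulators and 8 of the 9 lower calls were type I interferon-stimulated genes, and a difference between roles was not tested. With scaling to the microglia markers edgeR called 0 of the 92 higher and 57 lower, beside 12 and 5625 of all 10254 genes.

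**Figure D4:**
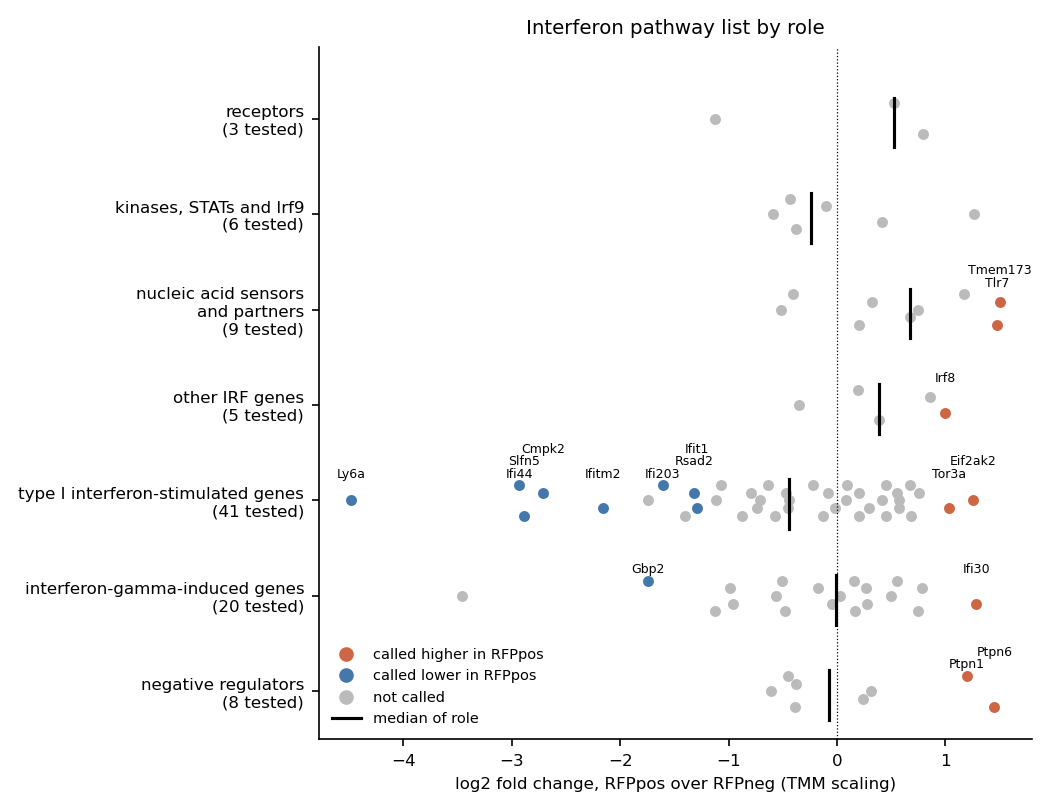
Log2 fold change of RFPpos over RFPneg (TMM scaling) for the 92 tested genes of the interferon pathway list, by role, with called genes named and a bar at the median of each role. Called genes are on the right for sensors and partners (Tmem173 and Tlr7), Irf8 and the negative regulators Ptpn1 and Ptpn6, while 8 of the 10 called type I interferon-stimulated genes are on the left, with Ly6a at −4.48; relative to microglia markers no gene was called higher.

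None of the interferons on the list was detected. These 11 ligands (Ifnb1, Ifna1, Ifna2, Ifna4, Ifna5, Ifnk, Ifne, Ifnz, Ifng, Ifnl2 and Ifnl3) had 0 counts in each of the 10 libraries, which allows up to 3 counts a library. Of the 4 other receptor subunits 3 were tested and none was called. Ifngr2, the partner of Ifngr1, had 39 counts in RFPneg and 66 in RFPpos (log2 fold change 0.79, standard error 0.44, edgeR adjusted p = 0.275) and was higher in RFPpos in 5 of 5 mice. Il10rb, shared with the interleukin 10 receptor, was at 167 ± 28.3 CPM in RFPneg and 241 ± 31.4 CPM in RFPpos (SD, n = 5 each; edgeR adjusted p = 0.118). Ifnar1, named here after its value was seen because it is the partner of Ifnar2, had a log2 fold change of −1.13 (standard error 0.46, edgeR adjusted p = 0.101) from 73 and 29 counts and was lower in RFPpos in 5 of 5 mice. None of the 6 tested genes for kinases, STATs and Irf9, the DNA-binding partner of STATs, was called either. Jak1, which sits on both receptors, was at 215 ± 37.2 and 287 ± 52.6 CPM (log2 fold change 0.41, edgeR adjusted p = 0.234). At an unadjusted p under 0.05 edgeR gave 2 of the 3 receptor subunits and 1 of these 6 genes, beside 2443 of all 10254 genes, and DESeq2 and limma-voom called 0 of either after adjustment. Relative to the microglia markers edgeR called 2 of the 3 and 5 of the 6 lower, beside 5625 of all 10254 genes.

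Of 9 tested sensors of foreign nucleic acid and their signalling partners, 2 were called higher (22.2%, against 4.98% of all genes) and 0 lower (against 8.52%) with TMM scaling. Relative to the microglia markers 0 of the 9 were called higher and 3 lower, beside 12 and 5625 of all 10254 genes. Their median log2 fold change was 0.68 (TMM). DESeq2 and limma-voom also gave 2 higher and 0 lower, beside 317 and 588 of all genes with DESeq2 and 565 and 932 with limma-voom. Tmem173, which encodes the adaptor STING of the DNA sensing route, rose from 93.2 ± 50.1 to 251 ± 57.4 CPM (SD, n = 5 each; log2 fold change 1.5, standard error 0.26, edgeR adjusted p = 7.20e-06). Tlr7, a receptor for single-stranded RNA in endosomes, rose from 43.4 ± 10.9 to 123 ± 21.8 CPM (1.48, standard error 0.32, edgeR adjusted p = 4.50e-04). Both were higher in RFPpos in 5 of 5 mice, and their values scaled to the microglia markers were 0.35 and 0.31 (edgeR adjusted p of 0.265 and 0.439). Tlr3, a receptor for double-stranded RNA, was not called (0.74, edgeR adjusted p = 0.0999).

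Of 5 other IRF genes tested, besides Irf7 and Irf9, 1 was called higher (20%, against 4.98% of all genes) and 0 lower (against 8.52%). Relative to the microglia markers 0 were called higher and 3 lower, beside 12 and 5625 of all 10254 genes. Irf8, a factor required for microglia and other myeloid cells, rose from 267 ± 71.5 to 520 ± 59.2 CPM (SD, n = 5 each; log2 fold change 1.00, standard error 0.21, edgeR adjusted p = 2.21e-04) and was higher in 5 of 5 mice, but was at −0.19 when scaled to the microglia markers. Irf2 was not called (log2 fold change 0.39, edgeR adjusted p = 0.378). Of the 8 negative regulators tested, 2 were called higher (25%, against 4.98%) and 0 lower (against 8.52%) with TMM scaling. Relative to the microglia markers 0 were called higher and 2 lower, beside 12 and 5625 of all genes. The 2 called higher with TMM scaling were the phosphatase genes Ptpn1 and Ptpn6, which act on Janus kinases and STATs. Ptpn1 went from 137 ± 34.5 to 309 ± 58.9 CPM (1.20, standard error 0.23, edgeR adjusted p = 4.51e-05) and Ptpn6 from 41.6 ± 15.5 to 123 ± 55.6 CPM (1.45, standard error 0.34, edgeR adjusted p = 0.00103). Relative to the microglia markers their log2 fold changes were 0.01 and 0.30, and neither was called.

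The type I interferon-stimulated genes made up the largest group, with 41 of 51 tested and a median log2 fold change of −0.44. Of the 41, 2 were called higher (4.88%, against 4.98% of all genes) and 8 lower (19.5%, against 8.52%). DESeq2 called 0 higher and 3 lower, beside 317 and 588 of all 10254 genes. With limma-voom 2 were called higher and 7 lower, beside 565 and 932. Relative to the microglia markers edgeR called 0 higher and 28 lower, beside 12 and 5625. The 8 called lower by edgeR with TMM scaling were Ly6a, Slfn5, Rsad2, Ifi44, Ifitm2, Cmpk2, Ifi203 and Ifit1. Ly6a, also known as Sca-1 and present on vessel endothelium and stem cells, had the smallest p-value of the list. It was at 304, 784, 934, 1228 and 588 CPM in the RFPneg libraries of mice 1 to 5 and at 15.0, 7.12, 48.0, 63.9 and 41.7 CPM in RFPpos. The ranges of the populations lay far apart. Ly6a fell by 4.48 on the log2 scale (standard error 0.28, edgeR adjusted p = 5.04e-21).

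Rsad2, which encodes viperin, an enzyme that makes a chain terminator of viral RNA synthesis, fell from 106 ± 89.5 to 37.5 ± 13 CPM (SD, n = 5 each; log2 fold change −1.32, standard error 0.37, edgeR adjusted p = 0.00736). Mouse 4 had the highest RFPneg value, 263 CPM against 45.0 to 90.1 CPM in the other mice. Without that mouse the log2 fold change was −0.92 (edgeR adjusted p = 0.218), and with DESeq2 the call was lost as well (0.0624). Slfn5 had 63 counts in RFPneg and 7 in RFPpos (−2.89, standard error 0.69, edgeR adjusted p = 0.00156) and Ifi44 had 44 and 5 (−2.93, standard error 0.86, edgeR adjusted p = 0.0124). Rsad2, Slfn5 and Ifi44 were each lower in RFPpos in 5 of 5 mice. The calls rested on few counts, and that of Slfn5 was lost without mouse 4 (adjusted p = 0.0839) and that of Ifi44 without mouse 3 or mouse 4 (0.103 and 0.0993). The calls of Ifit1, Ifi203 and Cmpk2 (log2 fold changes −1.29, −1.61 and −2.71) were likewise unsteady: that of Ifi203 was lost without mouse 2, 3 or 5, and those of Ifit1 and Cmpk2 without any one of mice 1 to 4. All 3 were also lost with DESeq2 (0.147 for Ifit1, 0.114 for Ifi203 and 0.0519 for Cmpk2), and that of Ifit1 with limma-voom (0.0504).

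The 2 called higher were Eif2ak2, the kinase PKR that halts translation on double-stranded RNA, and Tor3a. Eif2ak2 had 59 counts in RFPneg and 135 in RFPpos (log2 fold change 1.26, standard error 0.36, edgeR adjusted p = 0.0108), and the call was lost without mouse 2 or mouse 5 (0.146 and 0.164) and with DESeq2 (0.0998). Tor3a had 63 and 111 counts (1.04, standard error 0.35, edgeR adjusted p = 0.0332) and lost its call without mouse 1, 2, 3 or 5 (0.109, 0.0824, 0.0956 and 0.0893) and with DESeq2 (0.132). Scaled to the microglia markers they were at 0.06 and −0.15. Lgals9, a galectin, was at 210 ± 47.8 and 232 ± 91.4 CPM and was not called (0.09, edgeR adjusted p = 0.885).

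The levels of the 51 genes added up to 2288, 2843, 3576, 4174 and 2766 CPM in the RFPneg libraries of mice 1 to 5 and to 2253, 2538, 2449, 2352 and 1900 CPM in RFPpos. The sum was lower in RFPpos in 5 of 5 mice, by a small step in mouse 1. Without Ly6a, left out after its value was seen, the sums were 2362 ± 415 CPM in RFPneg and 2263 ± 253 CPM in RFPpos (SD, n = 5 each), and RFPpos was higher in 2 of 5 mice. The lower total of these genes in RFPpos was thus mostly that of a single gene.

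Genes induced by interferon gamma were called in equal numbers with TMM scaling, 1 higher and 1 lower of 20 tested, with a median log2 fold change of −0.01. DESeq2 called 1 higher and 0 lower, beside 317 and 588 of all 10254 genes. With limma-voom 1 was called higher and 2 lower, beside 565 and 932. Relative to the microglia markers edgeR called 0 higher and 14 lower, beside 12 and 5625. Ifi30, a thiol reductase of antigen processing, rose from 72.3 ± 24.1 to 178 ± 36.2 CPM (SD, n = 5 each; log2 fold change 1.29, standard error 0.27, edgeR adjusted p = 2.94e-04), with 0.11 when scaled to the microglia markers. Gbp2, a guanylate-binding protein, fell from 58 counts to 14 (−1.74, standard error 0.61, edgeR adjusted p = 0.0429) and lost its call without mouse 2, 3 or 4 (0.139, 0.271 and 0.0959) and with DESeq2 (0.140). Tapbp, which loads peptides on class I molecules, was at 129 ± 30.5 and 145 ± 32.0 CPM (0.16, edgeR adjusted p = 0.801), and Gbp7 at 124 ± 65.4 and 124 ± 44.8 CPM (0.03, edgeR adjusted p = 0.975). With 5% called in each direction with TMM scaling, these genes were near the background of 4.98% and 8.52%.

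Within the populations, the genes closest in pattern to the members differed from one member to the next. Likeness was taken as Pearson's r of log2 CPM, centred within each population, over the 10 libraries and among 1609 other genes of at least 100 CPM on average, and it is given as a description. Closest to Ifitm3 were Id2, Pls3 and Sox2 (r = 0.95, 0.94 and 0.93), and closest to Isg15 were Abcb1a, Igfbp7 and Klf2 (0.94, 0.92 and 0.91), of which Abcb1a is on the endothelial list. Closest to Bst2 were Aldh2, Rps13 and Spock2 (0.87, 0.85 and 0.84), and to Ly6e Pak2, Yme1l1 and Canx (0.88, 0.85 and 0.80). Closest to Ifngr1 were Arpc3, Picalm and St3gal6 (0.94, 0.91 and 0.89), and to Ifnar2 Hnrnpa0, P2rx7 and Rps21 (0.97, 0.96 and 0.95). Between members, r was 0.87 for Ifngr1 with Ifnar2, 0.74 for Bst2 with Ifitm3 and 0.73 for Ifitm3 with Isg15, and −0.51 for Ifngr1 with Isg15. The 10 libraries share 5 mice, and with so many genes compared over so few libraries high values of r arise readily.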

How the data were processed

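Bulk RNA sequencing of 10 libraries was analysed, and the 2 single-cell samples of the series were not analysed here. The authors made QuantSeq 3′ libraries with molecular identifiers and deposited whole-number counts per gene, from a Lexogen pipeline, without normalization. Their notes list the build mm10, and the aligner and annotation of the bulk data are not given in the sources used here. Reads on no gene (34.9% ± 2.24 in RFPneg, 41.5% ± 4.27 in RFPpos, SD, n = 5 each) and ambiguous reads (0.295% to 0.436%) stayed out of the library sizes. Gene coordinates are those of GENCODE on GRCm38.

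Genes with at least 20 counts in all were fitted with edgeR 4.0.16 in R 4.3.3 (TMM scaling, quasi-likelihood test, mouse as a block), with Benjamini-Hochberg adjustment over all genes tested and calls at an adjusted p under 0.05. The fit was tested on simulated data. The 95% intervals are not adjusted for the number of genes, and the limits from counts of 0 cover counting error only.

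The labels and methods give the pairing: both populations of a number are from the same mouse. Deviations from the population means correlated within mice 1 to 5 at 0.22, −0.038, 0.141, −0.00576 and 0.0143. Alternatives were median-of-ratios factors, library size only, the summed counts of 20 microglia markers, other filters, the edgeR likelihood ratio test, DESeq2 1.42.0, limma-voom (limma 3.58.1), no block, a fold change threshold and each mouse left out.

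The genes, lists and tests were chosen with earlier results of these data known. Values are given for up to 4 called genes of smallest p per role and direction of the pathway list and for up to 2 of highest count in each role. For each member of at least 100 CPM on average the 3 genes of highest r are named.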

Additional observations from a re-analysis of the deposited data

Results flagged for a closer look

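Libraries were compared within each population for the 9 genes, the interferon-induced groups of the pathway list and the microglia and endothelial markers, in 26 groups of 5 values. In 0 of the 26 did a library stand apart from the other 4 by Dixon's test at the 95% level, where chance alone would single out about 1 in 20.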

How the results depend on the processing

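Ifitm3 was lower in RFPpos and called in all 14 alternatives, with log2 fold changes from −3.13 to −1.75, and Ly6a likewise, from −5.69 to −4.15. Scaling to the microglia markers moved all genes down by construction. It gave 12 genes higher and 5625 lower over all genes, 0 higher and 57 lower in the pathway list, and 0 higher and 8 lower among the 9 genes. Log2 fold changes with it were −0.63 for Ifngr1, −1.08 for Ifnar2, −2.32 for Irf7, −1.93 for Isg15, −0.98 for Ifit3, −1.05 for Bst2, −1.5 for Oasl2, −1.37 for Ly6e, −0.19 for Irf8 and −0.15 for Tor3a.

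Ifngr1 kept its call with limma-voom, without the block and without mouse 5. It lost it with median-of-ratios factors (0.52), library size only (0.50), the filterByExpr filter (0.49), all genes with at least 1 count (0.56), the edgeR likelihood ratio test (0.56) and DESeq2 (0.56), each leaving 0 of the 9 genes called higher. Isg15 was called lower with median-of-ratios factors (−0.78) and with library size only (−0.80), which gave 2 of the 9 genes called lower. Without the mouse block 518 genes were called higher and 879 lower, and Ifit3 turned to −0.086. The cause was not tested.

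Over all genes, 317 were called higher with DESeq2, 332 with an absolute log2 fold change above 1 required as well, and 489 were called lower with the filterByExpr filter, which tests fewer genes. That filter tested 51 genes of the pathway list and 6 of the 9 interferon response genes. It called 2 genes of the list lower, a count that also falls because fewer were tested. DESeq2 tested 92 genes of the list and called 3 lower, beside 588 over all genes. With each mouse left out in turn, the list had 3 to 9 genes called lower, and the 9 genes had 0 to 1 called higher and 1 to 2 called lower. Log2 fold changes then ranged from 0.46 to 0.70 for Ifngr1, −1.07 to −0.46 for Isg15, −0.11 to 0.54 for Ifit3 and −0.61 to 0.14 for Oasl2.

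Depth limits Irf7, Ifit3 and Oasl2 and, in the pathway list, 7 of the 9 genes called lower, which had 43 to 120 counts in all. Each of those 7 calls was lost when a certain mouse was left out. The libraries of a population come from 5 mice of similar age and of 1 sex, no younger animals were profiled in bulk, and the cell types behind a level were not separated. The reporter transcript is not in the count table, and Cdkn2a had 8 counts in all.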
